A study of Mus musculus with 35 samples.

Results

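The GIMAP GTPases (GTPases of the immunity-associated protein family) are represented by 8 mouse genes, Gimap1, Gimap3, Gimap4, Gimap5, Gimap6, Gimap7, Gimap8 and Gimap9. They were listed by symbol, with earlier results of these data known. All 8 of the 8 were among the 22865 genes of the table, and all 8 were among the 6174 genes that passed the filter on low counts. The cells are CD8 T cells of C57BL/6 mice, 13 months old, fed a diet that the labels call CD-HFD or ND. The liver gave a fraction with the chemokine receptor CXCR6 (CXCR6pos) and one without it (CXCR6neg), and the spleen gave cells that lack the receptor CX3CR1 (CX3CR1neg). The groups are CD-HFD liver CXCR6pos (n = 5 libraries), ND liver CXCR6pos (n = 6), CD-HFD liver CXCR6neg (n = 6), ND liver CXCR6neg (n = 4), CD-HFD spleen CX3CR1neg (n = 6) and ND spleen CX3CR1neg (n = 5). The labels give no genotype, allele or drug beyond strain, age and diet, and do not tie replicates to animals. Every p-value here therefore rests on variation among these libraries, part of which may be technical. Levels are in CPM, counts scaled to a common library total.

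GIMAP proteins are small GTP-binding proteins found mainly in lymphocytes, where many of them sit on the membranes of organelles. In mice and rats, loss of Gimap5 shortens the life of T cells in the periphery, and loss of Gimap1 in mice removes most mature lymphocytes, so that the family is known as a set of survival factors. Others have been tied to cell death (Gimap4, with the BCL2-family protein BAX, in mice) or to autophagy (Gimap6, which binds the ATG8-family protein GABARAPL2 in human cells). T cells in a tissue also depend on interleukin 7 and on transcription factors of the resting state, genes that are listed further on beside the family.

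All 8 genes lie in 1 cluster on mouse chromosome 6, from 48647234 to 48770851 of GRCm38, a span of 123.6 kb. Along the chromosome the order is Gimap8 (48647234 to 48660875), Gimap9 (48676129 to 48679114), Gimap4 (48684549 to 48692060), Gimap6 (48701582 to 48708225), Gimap7 (48718621 to 48724636), Gimap1 (48739054 to 48743795), Gimap5 (48746197 to 48754210) and Gimap3 (48764464 to 48770851). Gimap6 and Gimap3 are on the minus strand and the other 6 are on the plus strand. The annotation places an antisense gene, Gimap1os (48738346 to 48741444), across the start of Gimap1 and not its 3′ end. It also places a read-through gene, Gm28053, from Gimap7 to Gimap5. A stretch as long as the 75-base cDNA read could be assigned to more than 1 gene in part of the family: 30.5% of such stretches of Gimap1 transcripts also occur in Gimap1os on the opposite strand. Gimap3 and Gimap5 share 83 stretches, which are 3.32% of those of Gimap3 and 1.97% of those of Gimap5. Gimap4, Gimap6, Gimap8 and Gimap9 shared none with another gene. These shares are over whole transcripts, while the libraries are 3′ RNA-seq, and the share of reads affected was not tested.

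Gimap7 and Gimap9 differed between the diets in opposite directions in liver CXCR6pos, and Gimap1 and Gimap5 were higher with Gimap7 in several comparisons. The results turn on these 4 members, so their promoters are printed. Each is the 250 bases before the start of the gene in RefSeq on GRCm38.p6, 5′ to 3′ on the gene's own strand, here the plus strand of chromosome 6, and capitals mark the letters of a searched motif. They lie at chr6:48718371-48718620 (Gimap7), chr6:48675885-48676134 (Gimap9), chr6:48738797-48739046 (Gimap1) and chr6:48745947-48746196 (Gimap5).
Gimap7: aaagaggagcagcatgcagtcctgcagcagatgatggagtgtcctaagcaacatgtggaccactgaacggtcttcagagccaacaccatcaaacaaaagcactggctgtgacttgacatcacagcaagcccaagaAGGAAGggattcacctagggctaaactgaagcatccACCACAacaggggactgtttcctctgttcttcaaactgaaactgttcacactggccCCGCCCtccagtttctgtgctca
Gimap9: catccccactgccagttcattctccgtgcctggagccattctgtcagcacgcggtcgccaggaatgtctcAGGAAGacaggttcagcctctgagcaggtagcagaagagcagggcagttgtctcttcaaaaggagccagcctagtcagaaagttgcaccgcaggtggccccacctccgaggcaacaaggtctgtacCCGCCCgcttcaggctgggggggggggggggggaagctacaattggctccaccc
Gimap1: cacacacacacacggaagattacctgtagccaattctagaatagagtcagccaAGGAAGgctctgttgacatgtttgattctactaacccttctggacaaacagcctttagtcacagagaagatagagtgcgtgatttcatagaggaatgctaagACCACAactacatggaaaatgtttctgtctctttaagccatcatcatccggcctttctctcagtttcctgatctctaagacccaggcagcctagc
Gimap5: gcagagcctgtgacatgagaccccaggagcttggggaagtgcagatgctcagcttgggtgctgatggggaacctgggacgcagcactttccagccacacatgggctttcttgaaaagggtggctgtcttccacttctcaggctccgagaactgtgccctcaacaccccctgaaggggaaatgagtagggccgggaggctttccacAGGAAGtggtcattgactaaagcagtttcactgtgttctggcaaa
The letters searched on both strands were AGGAAG (a form of ETS sites), TGTGGT (RUNX), CCGCCC (SP and KLF factors), GTAAACA (FOXO) and TATAAA (the TATA box). None of these strings contains another. The letters AGGAAG occurred for 7 of the 8 members, all but Gimap6. By window they occurred in 7 of 9, since Gimap8 has a further window without them, against 29.5% of 32851 mouse windows of the same length. Other forms of ETS sites were not searched, so their absence from Gimap6 is not shown. The RUNX letters occurred in Gimap1, Gimap4 and Gimap7 (14% of all windows), and CCGCCC in Gimap7 and Gimap9 (32.7%). The FOXO letters were found in Gimap3 (3.17% of all windows) and the TATA letters in Gimap6 (12.4%). Gimap7 and Gimap9 thus share the AGGAAG and the CCGCCC letters, and Gimap7 has the RUNX letters in addition. A match is a description of these letters and not of a bound site.

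Depth and the sort set limits on several groups. Total counts ran from 15633 to 978896 per library. Cxcr6 itself separated the CD-HFD liver fractions (573 to 867 CPM in CXCR6pos and 52.9 to 124 CPM in CXCR6neg). The ND fractions overlapped (201 to 812 CPM in CXCR6pos and 40.0 to 450 CPM in CXCR6neg). Among them, replicate 6 labelled ND CXCR6pos had the lowest Cxcr6 of its group (201 CPM), with sums of 1248 CPM for B cell markers and 976 CPM for plasmacytoid dendritic cell markers, where the other 5 reached at most 542 and 188 CPM. Replicate 4 labelled ND CXCR6neg had the highest Cxcr6 of its group (450 CPM). Calls in comparisons that use these 2 libraries are also given without them, with estimates for part of the members. Cd3e and Cd8a, which mark CD8 T cells, were present in every group, with means of 895 to 1891 and 879.8 to 1485 CPM.

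Together the 8 genes made up 0.53% of all counts in CD-HFD CXCR6pos, 0.49% in ND CXCR6pos and 0.40% to 0.42% in the other 4 groups. Their summed level was 5393, 5664, 5527, 5661 and 5942 CPM in the 5 CD-HFD CXCR6pos libraries. In ND CXCR6pos the lowest, median and highest sums were 3988, 5155 and 5662 CPM, the lowest from replicate 1 (81 counts, TMM factor 1.37). They were 4208, 4429 and 4630 CPM in CD-HFD CXCR6neg, and the 4 ND CXCR6neg libraries held 4402, 4223, 4832 and 4410 CPM. CD-HFD CXCR6pos therefore lay above every library of both CXCR6neg groups, while ND CXCR6pos overlapped them. Spleen sums were 4325, 4550 and 4643 CPM (lowest, median, highest) under CD-HFD, and 4238, 4147, 4256, 4344 and 4464 CPM in the ND libraries, which overlapped each other. Ordered by mean, the sum was 5637 ± 204 CPM in CD-HFD CXCR6pos, 5013 ± 682 in ND CXCR6pos, 4525 ± 125 in CD-HFD spleen, 4467 ± 258 in ND CXCR6neg, 4414 ± 175 in CD-HFD CXCR6neg and 4290 ± 120 in ND spleen (SD, n as above), and no neighbours in this order differed by more than the larger of their SDs.

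**Figure D1:**
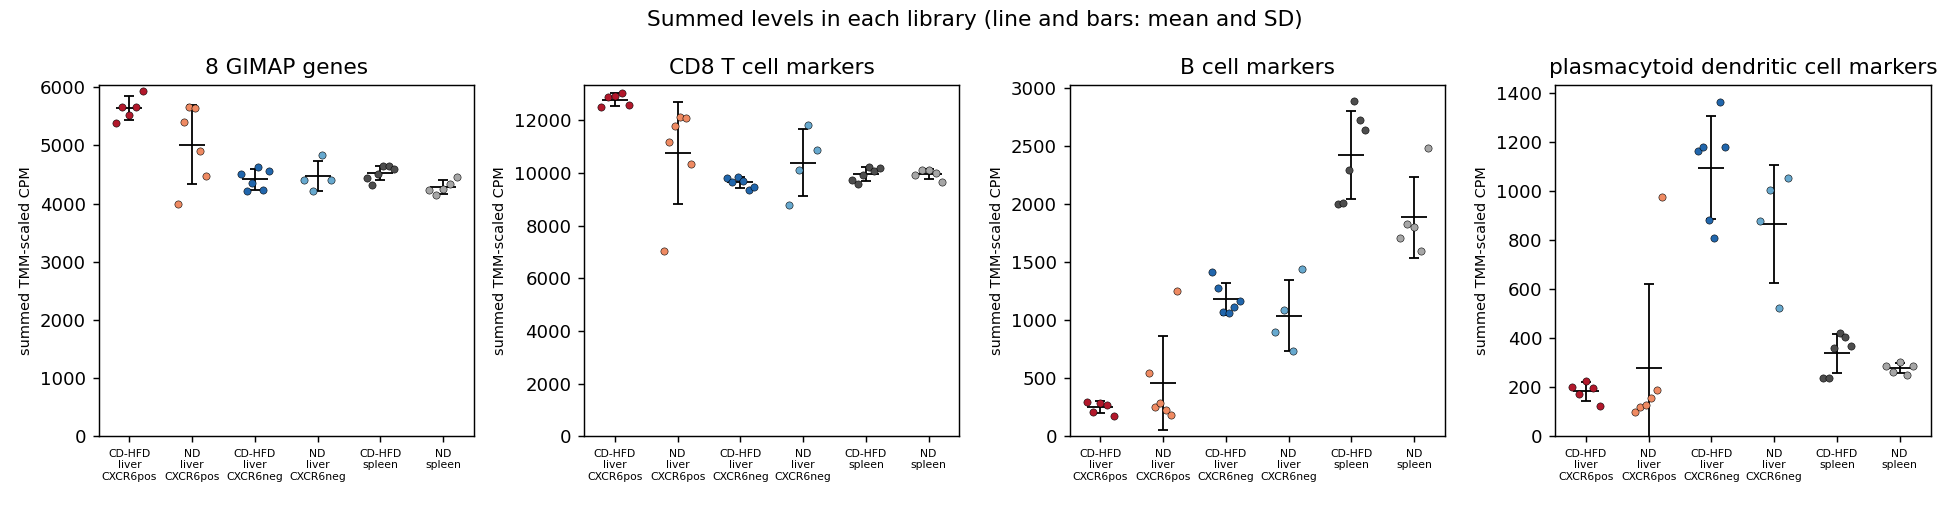
Summed TMM-scaled CPM per library for the 8 GIMAP genes and for 3 marker lists (CD8 T cell, B cell, plasmacytoid dendritic cell), with the mean and SD of each group; the lower SD bar of the dendritic cell sum in ND CXCR6pos is cut at 0. The GIMAP and CD8 T cell sums of CD-HFD CXCR6pos lie above every library of CD-HFD CXCR6neg, and the B cell and dendritic cell sums lie below.

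The first comparison set the CXCR6pos against the CXCR6neg fraction of the CD-HFD liver, which asks whether the family differs between liver CD8 T cells with and without CXCR6. Of the 8 genes, 5 were higher in CXCR6pos and none was lower: Gimap7, Gimap1, Gimap8, Gimap5 and Gimap4. Over all genes tested 11.1% were called, 4.76% higher and 6.38% lower. The median log2 fold change of the 8 was 0.34, and that of all genes was 0.00. The ranges of 3 members (Gimap4, Gimap7 and Gimap8) did not overlap between the fractions, against 6.85% of all genes.

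Gimap7, whose product is a GTPase that in humans activates a relative by pairing with it, showed the largest difference of the family in this comparison. It was at 744, 769.6, 703, 967 and 1026 CPM in the CXCR6pos libraries, and at 329.8, 510.1 and 544 CPM (lowest, median, highest) in CXCR6neg. The lowest CXCR6pos library was above the highest CXCR6neg library. Means were 842 ± 144 CPM in CXCR6pos (SD, n = 5) and 470.0 ± 82.5 CPM in CXCR6neg (n = 6), which is 1.73-fold higher (log2 fold change 0.79 ± 0.12, SE, adjusted p = 3.27e-07, edgeR quasi-likelihood test). Gimap1, which mature lymphocytes need to persist in mice, was at 360.3, 513, 429.5, 436 and 318 CPM in CXCR6pos, and at 253, 297 and 325 CPM (lowest, median, highest) in CXCR6neg. Only CXCR6pos replicate 5 fell inside the CXCR6neg range, and the fold was 1.43 (0.52 ± 0.13, adjusted p = 0.00183). Gimap1 counts are uncertain where the gene overlaps its antisense partner Gimap1os, which averaged 130 ± 30.1 CPM in CXCR6pos and 68.5 ± 17.7 CPM in CXCR6neg (0.85 ± 0.22, adjusted p = 0.0041), since the use of strand in counting is not stated. The calls of Gimap7 and Gimap1 remained without each of the 11 libraries in turn.

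Gimap8, a long member of the family that carries several GTPase domains, was at 319, 402, 324, 329 and 336 CPM in CXCR6pos and at 174, 257 and 317 CPM (lowest, median, highest) in CXCR6neg. The ranges just missed each other, and the gene was 1.43-fold higher (0.51 ± 0.14, adjusted p = 0.00672). Gimap5, the survival factor whose loss causes lymphopenia in rodents, was at 389.8, 317, 324, 326 and 301 CPM in CXCR6pos and at 207, 249 and 313 CPM (lowest, median, highest) in CXCR6neg. The highest CXCR6neg library exceeded the lowest CXCR6pos library, and the gene was 1.31-fold higher (0.39 ± 0.14, adjusted p = 0.0438). Gimap4, which has been tied to the death of T cells, was at 1471, 1515, 1419, 1483 and 1822 CPM in CXCR6pos and at 1114, 1270 and 1310 CPM (lowest, median, highest) in CXCR6neg, with no overlap and a fold of 1.22 (0.29 ± 0.10, adjusted p = 0.0314).

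Each of these 3 calls was lost when single libraries were left out. The call of Gimap8 was lost without CXCR6pos replicate 2 (adjusted p = 0.0591) and without CXCR6neg replicate 6 (adjusted p = 0.0643). The call of Gimap4 was lost without CXCR6pos replicates 2, 4 or 5 (adjusted p = 0.0541, 0.0501 and 0.107) and without CXCR6neg replicates 2 or 4 (adjusted p = 0.09 and 0.0574). The call of Gimap5 was lost without CXCR6pos replicates 1, 2, 3 or 4 (adjusted p = 0.14, 0.0552, 0.0596 and 0.0741) and without CXCR6neg replicates 1, 2, 3 or 6 (adjusted p = 0.071, 0.141, 0.0681 and 0.094). With no filter on low counts Gimap4 and Gimap5 both missed the threshold (adjusted p = 0.337 and 0.277), with DESeq2 Gimap5 did (adjusted p = 0.0671), and without the shallow libraries Gimap4 did (adjusted p = 0.0733). The remaining 3 members did not pass the test. Gimap3, which like Gimap5 binds proteins of the BCL2 family in mice, averaged 892 ± 92.4 CPM in CXCR6pos and 729 ± 43.0 CPM in CXCR6neg (0.30 ± 0.11, adjusted p = 0.0648). Gimap3 passed with RLE size factors (adjusted p = 0.0468), without the shallow libraries (adjusted p = 0.0309) and in a fit of the compared groups only (adjusted p = 0.0267). It also passed without CXCR6pos replicate 5 (adjusted p = 0.0456). Gimap6 averaged 1086 ± 133 and 928 ± 78.4 CPM (0.20 ± 0.10, adjusted p = 0.255), and Gimap9 was the single member with a negative estimate, at 190.1 ± 65.2 CPM in CXCR6pos and 238 ± 34.6 CPM in CXCR6neg (-0.28 ± 0.15, adjusted p = 0.289). Without CXCR6pos replicate 2, which held the most Gimap9, that estimate was -0.53 (adjusted p = 0.0277).

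Markers of cell identity moved with this comparison. Of the 10 CD8 T cell markers 4 (Cd3e, Cd3g, Cd8a and Trac) were higher in CXCR6pos and none lower, and the summed level of the 10 ran from 12500 to 13050 CPM in CXCR6pos and from 9350 to 9849 CPM in CXCR6neg. The sum of 8 plasmacytoid dendritic cell markers ran from 124 to 224 CPM in CXCR6pos and from 811 to 1363 CPM in CXCR6neg, with all 8 called lower. Of these markers Spib and Ccr9 were at 0 in every CXCR6pos library. The sum of 8 B cell markers ran from 177 to 295 CPM in CXCR6pos and from 1062 to 1412 CPM in CXCR6neg, with Pax5 at 0 in CXCR6pos and Cd79a and Ms4a1 at 0 in CXCR6neg, and 3 of its 4 tested members (Ighm, Cd74 and Ly6d) were lower. The sum of 4 natural killer cell markers ran from 20.3 to 124 CPM in CXCR6pos and from 457 to 553 CPM in CXCR6neg. The part of these differences in the GIMAP result was not tested. In bulk samples, fewer cells of a type and less RNA per cell cannot be told apart.

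**Figure D2:**
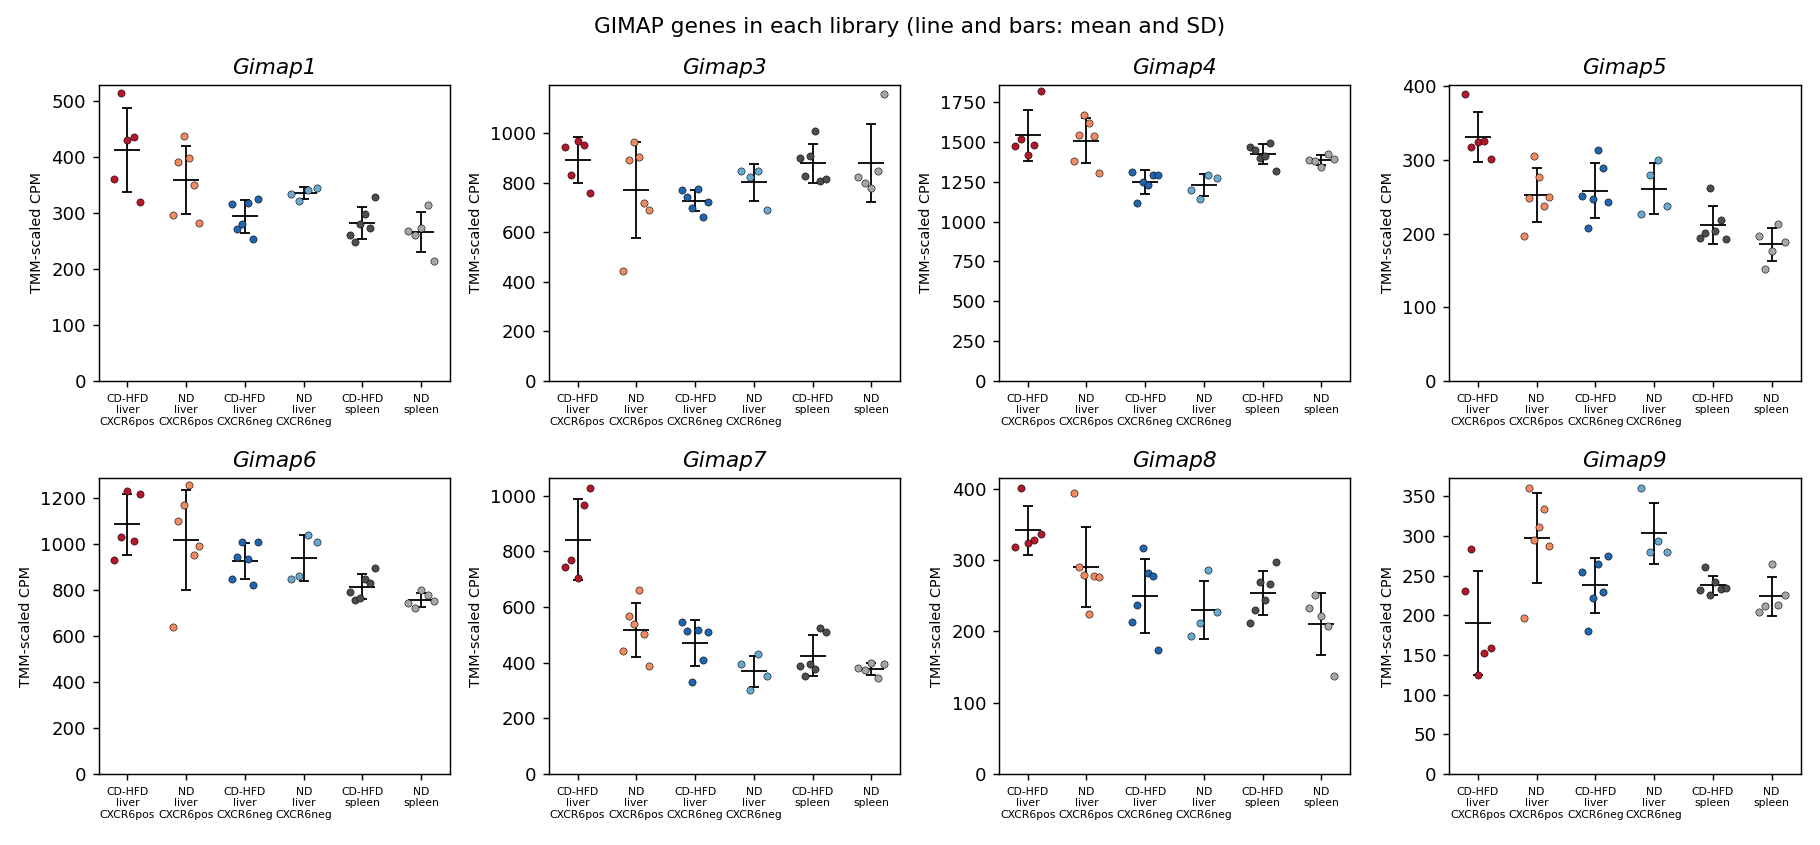
TMM-scaled CPM of each GIMAP gene in every library, in 6 groups from CD-HFD liver CXCR6pos on the left to ND spleen on the right, with the mean and SD. Gimap7 is at 703 to 1026 CPM in CD-HFD liver CXCR6pos and at most 661 CPM elsewhere, while Gimap9 is lowest on average in that same group.

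Between the ND liver fractions no member was called by edgeR's quasi-likelihood test, where 0.0324% of all genes were. Among the members 2 had an unadjusted p under 0.05, Gimap7 and Gimap4, and DESeq2 called both (adjusted p = 0.0348 and 0.0158). Gimap7 was at 387, 522 and 661 CPM (lowest, median, highest) in ND CXCR6pos and at 394, 303, 430.3 and 351 CPM in ND CXCR6neg. The lowest CXCR6pos value belongs to replicate 6 and the highest CXCR6neg value to replicate 4, the 2 libraries whose Cxcr6 went against their label. The log2 fold change was 0.50 ± 0.13 (adjusted p = 0.174) with all libraries and 0.69 without these 2 (adjusted p = 0.0025). Without replicate 6 of CXCR6pos alone it was 0.60 (adjusted p = 0.00514). Without the 2 libraries Gimap7 was the 1 member called, and 90 genes were called in all, against 2 genes with them. Gimap4 averaged 1508 ± 141 CPM in ND CXCR6pos (n = 6) and 1227 ± 68.8 CPM in ND CXCR6neg (n = 4), with ranges that did not overlap, as for 1.04% of all genes (0.31 ± 0.10, adjusted p = 0.27). Without the 2 libraries its estimate was 0.38 (adjusted p = 0.0612). The other 6 members had log2 fold changes from -0.02 to 0.20 with all libraries. Whether the difference between fractions changed with diet was tested directly, and no member passed (1.44% of all genes did, 0.437% higher and 1% lower). Among the members 2, Gimap1 and Gimap5, had an unadjusted p under 0.05, and DESeq2 called none. For Gimap7 that interaction was 0.29 ± 0.18 (adjusted p = 0.597), 0.19 without ND CXCR6pos replicate 6 (adjusted p = 0.817) and 0.09 without the 2 libraries (adjusted p = 0.953). No member passed without these 2.

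The second question was whether diet changes the family within a fraction. In the CXCR6pos fraction of the liver, CD-HFD against ND, 1 member was higher and 1 lower: Gimap7 rose and Gimap9 fell. Over all genes 11.3% were called, 4.84% higher and 6.45% lower, so that a count of 2 of 8 is not far from the background. Gimap7, with the 5 CD-HFD values given above, was at 443, 568, 539.6, 661, 505 and 387 CPM in the ND libraries, none of which reached the lowest CD-HFD library. It was 1.58-fold higher under CD-HFD (842 ± 144 CPM, n = 5, against 517 ± 96.3 CPM, n = 6, 0.66 ± 0.12, adjusted p = 1.35e-05). Of all genes, 4.50% had ranges that did not overlap in this comparison, and Gimap7 was the 1 member that did so.

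Gimap9 went the other way. It was at 230.4, 283.5, 124.5, 153 and 159 CPM in the CD-HFD libraries and at 197, 361, 295.5, 311, 334 and 287 CPM in the ND libraries. The CD-HFD libraries spread widely: replicates 3, 4 and 5 lay below every ND library, while replicates 1 and 2 lay inside the ND range. Some of these values rest on few counts, 20 and 9 in CD-HFD replicates 3 and 5. The lowest ND library, replicate 1, held 4 counts of Gimap9. The mean was 190.1 ± 65.2 CPM under CD-HFD and 297.5 ± 56.2 CPM under ND, a fold of 1.58 lower (-0.66 ± 0.15, adjusted p = 0.000419). Both calls remained without the 2 libraries with Cxcr6 against their label (Gimap7 0.57, adjusted p = 0.00029, Gimap9 -0.69, adjusted p = 0.000489) and without each library in turn. Gimap5 and Gimap8 had estimates of 0.35 ± 0.13 (adjusted p = 0.0725) and 0.34 ± 0.14 (adjusted p = 0.0975), and Gimap5 passed without ND CXCR6pos replicate 3 (0.42, adjusted p = 0.0336). Gimap4 and Gimap6 had estimates of 0.00 ± 0.10 and 0.01 ± 0.10. Beside these values, summed CD8 T cell markers ran from 12500 to 13050 CPM under CD-HFD and from 7041 to 12120 CPM under ND. The ND low was the shallow replicate 1, and the next lowest was 10340 CPM. Of the 10 CD8 T cell markers 3 were higher and 1 lower under CD-HFD. Natural killer cell markers ran from 20.3 to 124 CPM under CD-HFD and from 98.5 to 415 CPM under ND. The ND high was replicate 6, and the next highest was 166 CPM. Here 3 of 3 tested members (Tyrobp, Klrb1c and Fcer1g) were lower under CD-HFD. The part of either in the result was not tested.

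Since the 2 genes moved in opposite directions, their ratio within a library, which needs no scaling between libraries, was higher in CD-HFD CXCR6pos than in all other groups, with 1 overlap. This ratio was chosen after its values were seen and is a description. Gimap7 was at 3.23, 2.71, 5.65, 6.32 and 6.44 times the count of Gimap9 in the CD-HFD CXCR6pos libraries. The lowest, median and highest ratios were 1.35, 1.70 and 2.25 in ND CXCR6pos and 1.49, 1.90 and 2.83 in CD-HFD CXCR6neg. They were 1.09, 1.08, 1.46 and 1.25 in the ND CXCR6neg libraries. In the spleen they were 1.35, 1.71 and 2.25 under CD-HFD, and 1.86, 1.77, 1.5, 1.61 and 1.75 in the ND libraries. CD-HFD CXCR6pos replicate 2 (2.71) lay just under the highest CD-HFD CXCR6neg library (2.83), and the ranges overlapped with no other group. Some ratios rest on few counts: 58 over 9 in CD-HFD CXCR6pos replicate 5, and 9 over 4 in ND CXCR6pos replicate 1. Gimap7 supplied 14.9% ± 2.12 of the summed family in CD-HFD CXCR6pos (SD, n = 5) and a mean of 8.24% to 10.6% in the other groups. Gimap9 supplied 3.38% ± 1.19 there and a mean of 5.23% to 6.81% elsewhere.

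**Figure D3:**
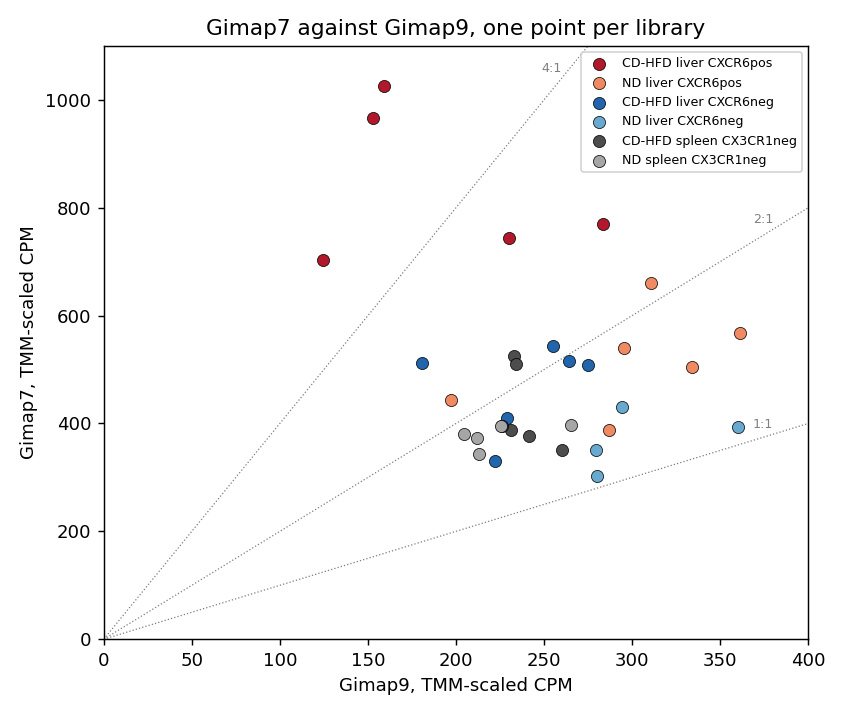
Gimap7 against Gimap9 in TMM-scaled CPM, 1 point per library, with dotted lines of equal ratio. The 5 CD-HFD liver CXCR6pos libraries lie above the rest on the Gimap7 axis, and 3 of them lie left of every other library on the Gimap9 axis.

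The same diet contrast gave no call among the members in the other fractions. In CXCR6neg, CD-HFD against ND, edgeR called none of the 8 (0.47% of all genes were called, 0.292% higher and 0.178% lower), DESeq2 called none, and 2 had an unadjusted p under 0.05: Gimap7 (470.0 ± 82.5 CPM, n = 6, against 369 ± 55.1 CPM, n = 4, 0.37 ± 0.14, adjusted p = 0.296) and Gimap9 (238 ± 34.6 against 304 ± 38.3 CPM, -0.32 ± 0.15, adjusted p = 0.508). The estimates of these 2 genes had the signs seen in CXCR6pos, and for Gimap9 the ranges did not overlap, as for 1.90% of all genes. Without ND CXCR6neg replicate 4 and ND CXCR6pos replicate 6 the estimates were 0.48 for Gimap7 (adjusted p = 0.197) and -0.33 for Gimap9 (adjusted p = 0.629), and no member passed. In the spleen no member was called by either tool or had an unadjusted p under 0.05, and 0.0324% of all genes were called, 0.0162% in each direction. No member had ranges that did not overlap, against 0.745% of all genes. Estimates there ran from 0.01 (Gimap3) to 0.20 (Gimap8), and Gimap7 averaged 424 ± 73.9 CPM under CD-HFD and 378 ± 21.7 CPM under ND.

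Whether the diet difference of CXCR6pos differs from that of the spleen was tested as an interaction. Gimap9 passed, with -0.66 in CXCR6pos and 0.11 in the spleen, a difference of -0.77 ± 0.19 (adjusted p = 0.00645), where 3.98% of all genes were called, 1.21% higher and 2.77% lower. Without CD-HFD CXCR6pos replicate 4 it was -0.64 and missed the threshold (adjusted p = 0.0525). Gimap7 had a difference of 0.51 ± 0.17 (adjusted p = 0.0642) and did not pass. It passed with RLE size factors (adjusted p = 0.0418) and without ND CXCR6pos replicate 4 (adjusted p = 0.016), CD-HFD CXCR6pos replicates 1 or 3 (adjusted p = 0.0469 and 0.0434) or CD-HFD spleen replicates 5 or 6 (adjusted p = 0.0335 and 0.0297). Without the 2 libraries with Cxcr6 against their label, Gimap9 still passed (-0.80, adjusted p = 0.00581) and Gimap7 did not (0.42, adjusted p = 0.178). The other 6 members had differences from -0.09 to 0.19 with all libraries.

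**Figure D4:**
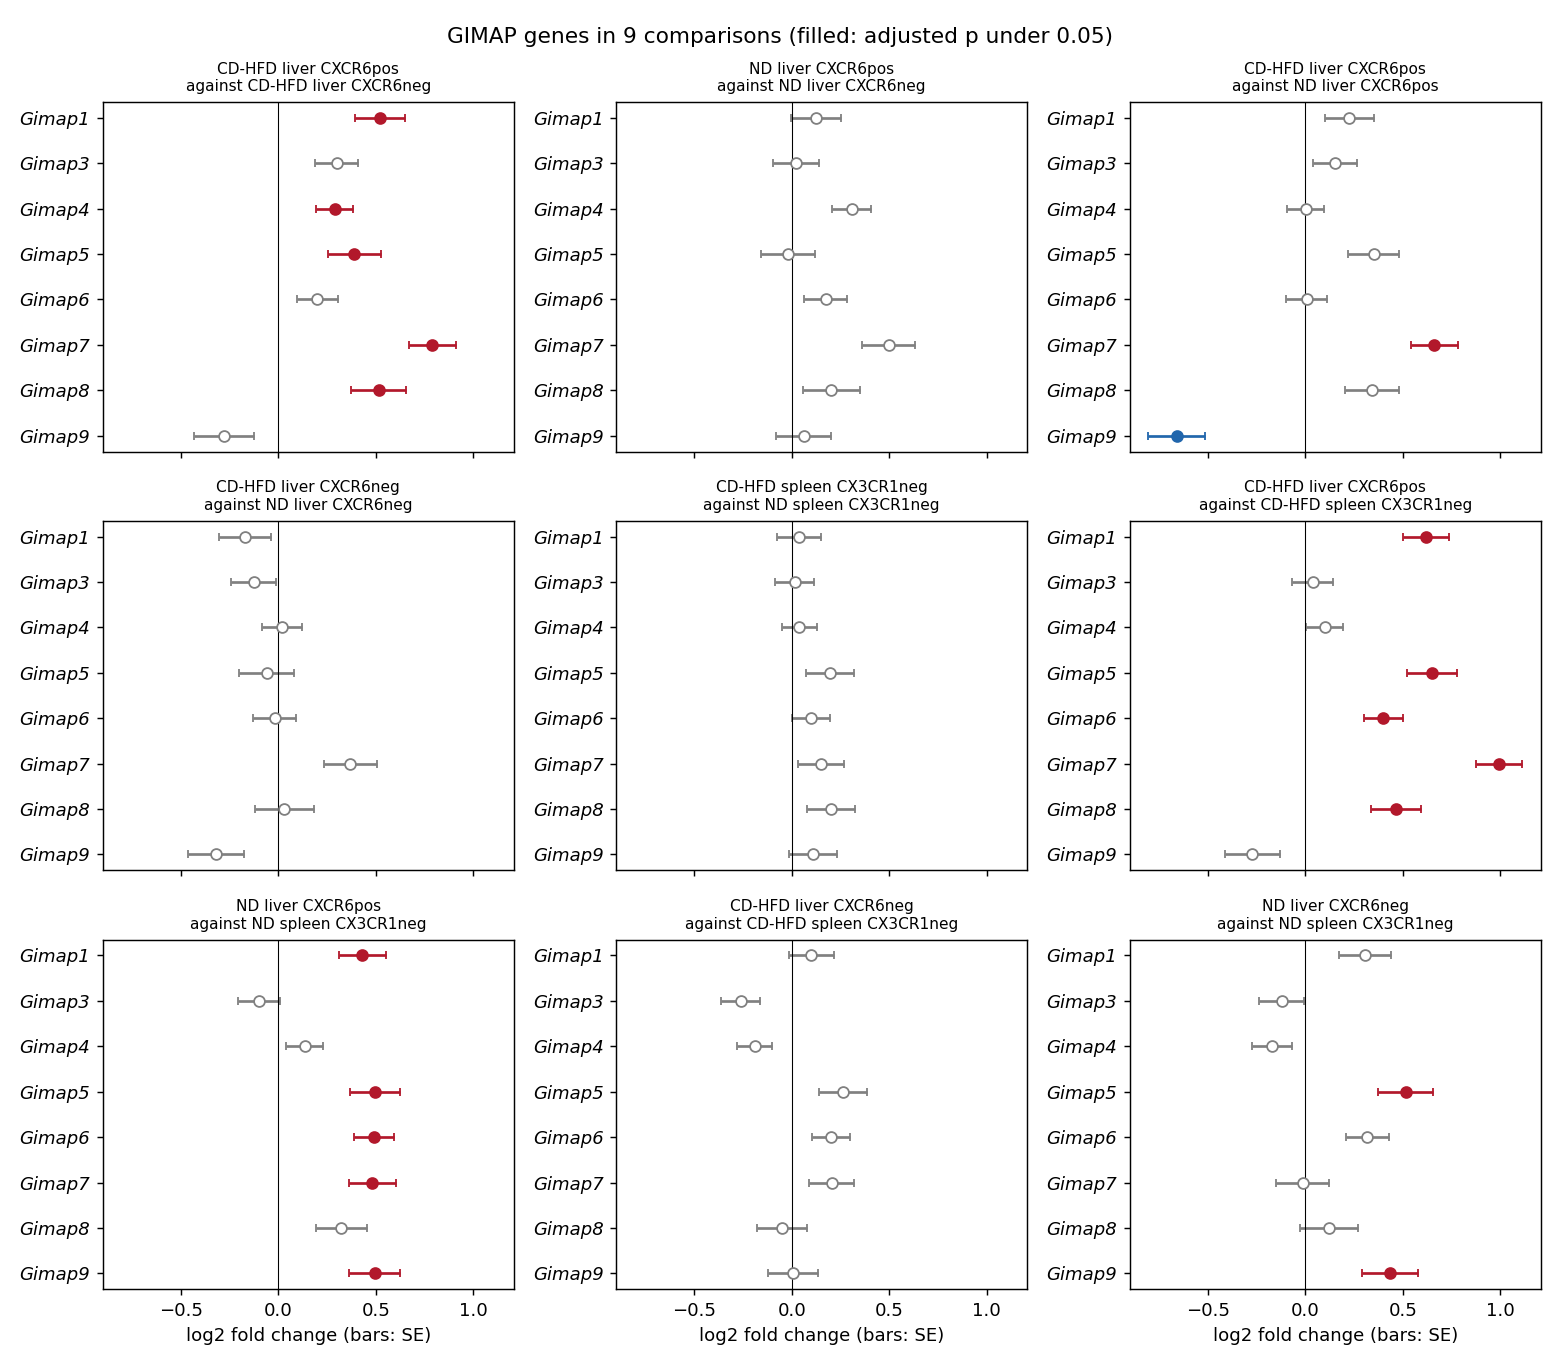
Log2 fold change with its SE for each GIMAP gene in 9 comparisons, filled where the adjusted p is under 0.05, red for higher and blue for lower. Filled points are most frequent in the comparisons of liver CXCR6pos, and Gimap9 is blue in CD-HFD against ND CXCR6pos.

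The third question was how liver cells differ from spleen cells. Liver and spleen cells were sorted by different receptors, so tissue and gate cannot be told apart. Under CD-HFD, 5 members were higher in liver CXCR6pos than in the spleen and none was lower, against 12.5% of all genes higher, 13.3% lower and 25.7% called in all. Of these, 4 (Gimap5, Gimap6, Gimap7 and Gimap8) had ranges that did not overlap, against 14.8% of all genes. Under ND also 5 were higher and none lower, against 7.43% higher, 6.98% lower and 14.4% in all. There no member had ranges that did not overlap, against 5.8% of all genes. The CD-HFD comparison uses the same CXCR6pos libraries as those above and is not independent of them. Gimap1, Gimap5, Gimap6 and Gimap7 were called under both diets, Gimap8 under CD-HFD and Gimap9 under ND. The 5 calls under ND remained without the 2 libraries with Cxcr6 against their label, with estimates of 0.52 (Gimap5) to 0.59 (Gimap7) and adjusted p from 5.81e-05 (Gimap6) to 0.00316 (Gimap5). B cell markers summed to 177 to 295 CPM in CD-HFD CXCR6pos, against 1999 to 2881 CPM in CD-HFD spleen, and to 186 to 1248 CPM in ND CXCR6pos, against 1594 to 2483 CPM in ND spleen. Of 5 erythroid markers 2 were higher in CXCR6pos under CD-HFD (sums of 3654 to 10570 CPM against 2345 to 5063 CPM) and 3 under ND (2258 to 6095 against 818 to 1954 CPM, with no overlap). Of the 10 CD8 T cell markers 6 were higher and 1 lower under CD-HFD, and 4 were higher under ND. The part of these markers in the result was not tested.

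Gimap7 was 1.99-fold higher in CD-HFD liver CXCR6pos than in CD-HFD spleen, which held 351, 392 and 524.5 CPM (lowest, median, highest) (0.99 ± 0.12, adjusted p = 5.17e-12). Under ND it was 1.40-fold higher (0.48 ± 0.12, adjusted p = 0.00203), and the spleen libraries at 379.8, 374, 398, 344 and 395 CPM overlapped the lowest ND CXCR6pos library. Gimap5 was at 192, 202 and 262 CPM (lowest, median, highest) in CD-HFD spleen, below every CD-HFD CXCR6pos library (0.65 ± 0.13, adjusted p = 1.4e-05). Under ND it averaged 252 ± 36.7 CPM in CXCR6pos (n = 6) and 185 ± 23.0 CPM in spleen (n = 5), with libraries at 196.5, 152, 176, 213 and 188 CPM in spleen and a lowest CXCR6pos library at 197 CPM (0.50 ± 0.13, adjusted p = 0.00302). Gimap6 averaged 1019 ± 216 CPM in ND CXCR6pos and 759 ± 30.7 CPM in ND spleen (0.49 ± 0.10, adjusted p = 0.000119), and Gimap1 359 ± 61.1 and 265 ± 36.2 CPM (0.43 ± 0.12, adjusted p = 0.00603). For Gimap6 the shallowest library, ND CXCR6pos replicate 1, lay below every ND spleen library (640 CPM from 13 counts, TMM factor 1.37). The other 5 lay above them, and for Gimap1 replicates 1 and 6 lay inside the spleen range. The values of Gimap5 and Gimap1 in replicate 1 rest on 4 and 6 counts.

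For Gimap9 the estimate had a different sign under each diet. Under ND it was 1.41-fold higher in liver CXCR6pos than in spleen (297.5 ± 56.2 CPM, n = 6, against 224 ± 24.3 CPM, n = 5, 0.49 ± 0.13, adjusted p = 0.00307). Under CD-HFD it averaged 190.1 ± 65.2 CPM in CXCR6pos (n = 5) and 238 ± 12.2 CPM in spleen (n = 6), without passing the test (-0.27 ± 0.14, adjusted p = 0.158). Without CD-HFD CXCR6pos replicate 2 it was -0.51 (adjusted p = 0.0106). The interaction of diet and fraction given above is the test of this change. Gimap3 and Gimap4 passed in neither diet, with estimates of 0.04 ± 0.11 and 0.10 ± 0.09 under CD-HFD and of -0.10 ± 0.11 and 0.13 ± 0.09 under ND. Gimap8 was called under CD-HFD (0.46 ± 0.13, adjusted p = 0.00321) and had a similar estimate under ND (0.32 ± 0.13, adjusted p = 0.0902), where it passed without ND CXCR6pos replicate 4 or ND spleen replicate 2 (adjusted p = 0.048 each).

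Fewer members were called between the CXCR6neg fraction of the liver and the spleen. Under CD-HFD no member was called by edgeR (10.4% of all genes were, 5.73% higher and 4.71% lower) or by DESeq2, and 4 had an unadjusted p under 0.05. Of these Gimap3 and Gimap4 had lower estimates in the liver (-0.26 ± 0.10, adjusted p = 0.0822, and -0.19 ± 0.09, adjusted p = 0.169) with ranges that did not overlap, as for 5.91% of all genes. Gimap5 and Gimap6 had higher ones (0.26 ± 0.12, adjusted p = 0.18, and 0.20 ± 0.10, adjusted p = 0.191). Under ND, 2 members were higher in liver CXCR6neg, against 4.73% of all genes higher, 2.14% lower and 6.87% in all: Gimap5 (261 ± 34.4 CPM, n = 4, against 185 ± 23.0 CPM, n = 5, 0.52 ± 0.14, adjusted p = 0.0104) and Gimap9 (304 ± 38.3 against 224 ± 24.3 CPM, 0.43 ± 0.14, adjusted p = 0.0451). These 2 and Gimap1, Gimap4 and Gimap6 had ranges that did not overlap, against 8.92% of all genes. Neither call remained without the 2 libraries whose Cxcr6 went against their label (adjusted p = 0.108 and 0.0811). Gimap5 also missed the threshold without ND CXCR6neg replicate 4 or ND spleen replicate 2 (adjusted p = 0.118 and 0.0756). Gimap9 missed it without ND CXCR6neg replicates 2, 3, 4 or 5 (adjusted p = 0.183, 0.052, 0.0948 and 0.0635) or ND spleen replicates 1, 2, 4 or 5 (adjusted p = 0.11, 0.106, 0.106 and 0.0544). Markers of other cells moved with these comparisons. Of 8 plasmacytoid dendritic cell markers 7 were higher in liver CXCR6neg under CD-HFD (sums of 811 to 1363 CPM against 237 to 420.5 CPM in spleen) and 6 under ND (524 to 1056 against 252 to 301 CPM). Of 3 tested natural killer cell markers 2 were higher under CD-HFD (457 to 553 against 132 to 193 CPM) and 1 under ND (230 to 542 against 137 to 169 CPM). Of 5 erythroid markers none was called under CD-HFD (1731 to 9148 against 2345 to 5063 CPM) and 3 were higher under ND (3900 to 9011 against 818 to 1954 CPM). B cell sums were lower in liver CXCR6neg, at 1062 to 1412 CPM against 1999 to 2881 CPM in spleen under CD-HFD. Under ND they were 732 to 1438 against 1594 to 2483 CPM. Among 4 tested B cell markers 2 were lower and 1 higher under CD-HFD, and 1 was lower and 1 higher under ND. The part of all these markers in the result was not tested.

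**Figure D5:**
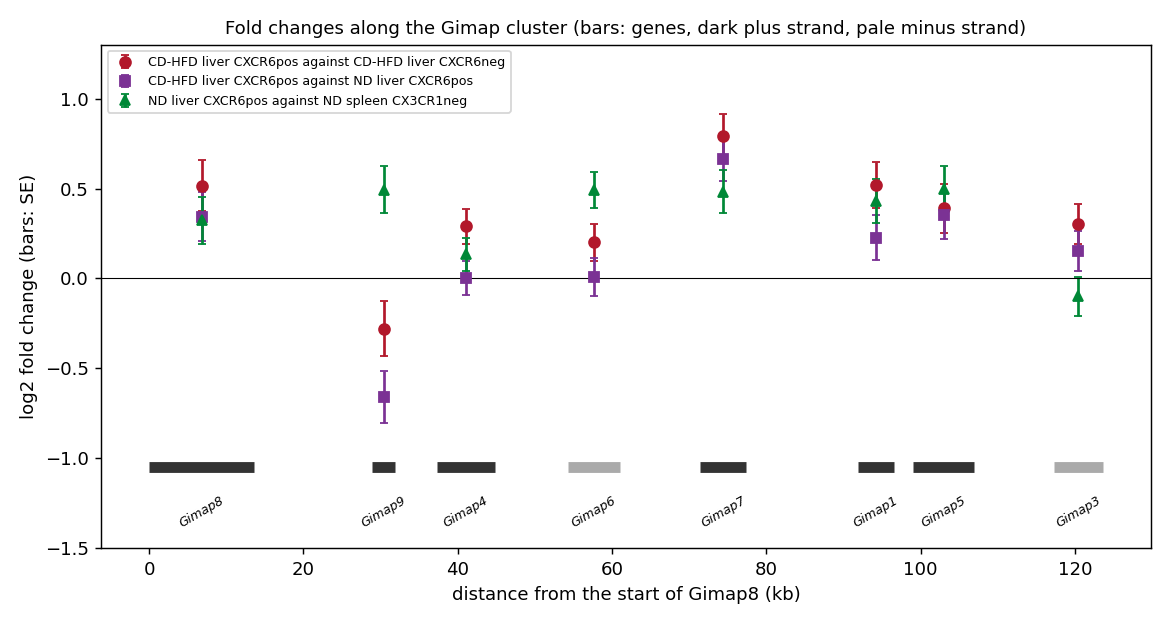
Log2 fold change with its SE of the 8 genes at their place in the cluster, in kb from the start of Gimap8, for 3 comparisons; bars mark the genes, dark on the plus and pale on the minus strand. Gimap9, between Gimap8 and Gimap4, is at -0.66 in CD-HFD against ND CXCR6pos, where Gimap8 is at 0.34 and Gimap4 at 0.00.

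Genes called together lay next to each other in some comparisons and not in others. Gimap6, Gimap7, Gimap1 and Gimap5 are consecutive and were higher in liver CXCR6pos than in spleen under both diets. Gimap8, called there under CD-HFD, and Gimap9, called there under ND, lie apart from this run. Between the CD-HFD liver fractions the consecutive Gimap7, Gimap1 and Gimap5 were higher. Gimap8 and Gimap4 were higher there too, but Gimap9 lies between them and Gimap6 between Gimap4 and Gimap7, and neither was called. Between the diets in CXCR6pos, Gimap9 fell while its neighbours Gimap8 (0.34 ± 0.14) and Gimap4 (0.00 ± 0.10) did not pass, and Gimap7 rose while its neighbours Gimap6 (0.01 ± 0.10) and Gimap1 (0.23 ± 0.12, adjusted p = 0.289) did not pass. Gimap1os, the antisense gene across Gimap1, was higher as well (130 ± 30.1 CPM under CD-HFD against 81.7 ± 21.4 CPM under ND, 0.63 ± 0.21, adjusted p = 0.0337). It averaged 46.5 to 69.8 CPM in the other 4 groups, and the read-through gene Gm28053 had group means of at most 6.78 CPM. Of 13 genes listed as neighbours of the cluster, 12 were in the table and 0 passed the filter on low counts, with group means of at most 26.2 CPM (Tmem176b). Of the 13, 4 (Kcnh2, Nos3, Atg9b and Abcb8) lie on chromosome 5 in the annotation.

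Across the 6 groups, 3 kinds of profile were seen among the members, as a description of group means. Gimap7 was highest in CD-HFD CXCR6pos (842 CPM), above ND CXCR6pos (517 CPM) by more than the larger SD, and the following 5 groups in the order (517, 470, 424, 378 and 369 CPM) did not differ from their neighbours by that much. Gimap5 was likewise highest in CD-HFD CXCR6pos (332 CPM, against 261 CPM in ND CXCR6neg), with the 3 other liver groups close together and the 2 spleen groups lowest (212 CPM under CD-HFD and 185 CPM under ND). Gimap9 had its highest means in ND CXCR6neg and ND CXCR6pos (304 and 297.5 CPM), above CD-HFD spleen (238 CPM) by more than the larger SD, and its lowest in CD-HFD CXCR6pos. Gimap4 averaged 1227 to 1542 CPM over the groups and Gimap6 759 to 1086 CPM. Gimap3 averaged 729 to 892 CPM, with no neighbours in its order apart by more than the larger SD.

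The genes whose 6 group means were most like those of the summed family were sought among 5444 genes with a mean of at least 20 CPM, as the root mean square difference of centred log2 values. Among the closest were Cdk17, which codes for a kinase of the cyclin-dependent family (difference 0.023, mean 26.3 CPM), Phip (0.045), Cyb5b (0.046) and Usf1, a transcription factor (0.047). Of the members themselves Gimap4 (0.095) and Gimap6 (0.097) were closest to the sum and Gimap7 (0.269) and Gimap9 (0.323) farthest. The sum contains its members, and likeness over 6 means says nothing of shared control.

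A list of 12 genes whose products bind GIMAP proteins or act beside them held 11 tested genes. In CD-HFD CXCR6pos against CXCR6neg, 2 were higher and none lower, with a median log2 fold change of 0.22 over the 11, where 4.76% of all genes were higher and 11.1% were called. Gabarapl1, an ATG8-family gene of autophagy, averaged 46.5 ± 8.49 CPM in CXCR6pos and 11.8 ± 8.20 CPM in CXCR6neg (1.72 ± 0.47, adjusted p = 0.00595). Nfatc1, a transcription factor of T cell receptor signalling, averaged 165 ± 26.5 and 99.0 ± 48.5 CPM (0.63 ± 0.20, adjusted p = 0.0211). Gsk3b, a kinase tied to Gimap5 in mouse T cells, had 50.8 ± 28.5 and 22.6 ± 11.1 CPM without passing (1.05 ± 0.41, adjusted p = 0.0809), and the survival gene Bcl2 335 ± 73.9 and 293 ± 72.1 CPM (0.19 ± 0.14, adjusted p = 0.475). In CD-HFD against ND CXCR6pos 1 of the 11, Nfatc1, was higher (165 ± 26.5 against 85.3 ± 18.8 CPM, 0.86 ± 0.20, adjusted p = 0.000678) and none was lower, a count near the background of 11.3% of all genes called. Between liver CXCR6pos and spleen 4 were higher under CD-HFD (Nfatc1, Gabarapl1, Map1lc3b and Bax) and 3 under ND (Gabarapl1, Map1lc3b and Bax), and none was lower, against 25.7% and 14.4% of all genes called. Map1lc3b and Bax were named after their values were seen.

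In the list of interleukin-7 survival and resting-state genes, lower calls outnumbered higher ones in the comparisons of CD-HFD CXCR6pos. Of 29 genes 25 were tested, and in CD-HFD CXCR6pos against CXCR6neg 9 were lower and 1 was higher, with a median of -0.33, where 6.38% of all genes were lower and 4.76% higher. The higher one, named after its values were seen, was Cish, a feedback inhibitor of cytokine receptors. Those with the smallest p-values were Tcf7, S1pr1, Klf2 and Il7r. Il7r, the interleukin-7 receptor chain, averaged 44.4 ± 15.2 CPM in CXCR6pos and 276 ± 42.3 CPM in CXCR6neg (-2.55 ± 0.25, adjusted p = 2.18e-11). Klf2, a factor of T cell quiescence and egress, averaged 645 ± 145 and 1382 ± 123 CPM (-1.16 ± 0.12, adjusted p = 4.19e-14). In CD-HFD against ND CXCR6pos 10 of the 25 were lower and 1 (Jak3, named after its values were seen) was higher, where 6.45% of all genes were lower and 4.84% higher. In CD-HFD CXCR6pos against CD-HFD spleen 10 were lower and 6 higher, with 13.3% of all genes lower and 12.5% higher. In ND CXCR6pos against ND spleen 5 were higher and 5 lower, with a median of 0.07, against 7.43% and 6.98% of all genes.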

How the data were processed

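Libraries are bulk 3′ RNA-seq of sorted CD8 T cells, primed with barcoded oligo-dT that carries UMIs, per the labels' protocols. The authors deposited 1 table of raw counts, whole numbers by gene symbol, with 22865 genes. The submitters' processing notes name the build GRCm38.p6 and the tool DESeq2 1.14.1. The read aligner, the counter, its gene models and strand setting, and any collapsing of UMIs were not stated there.

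Of 35 columns of values, 34 matched a labelled sample by name, and 1 matched none and was used in no step. That column is named as a sixth ND liver CXCR6neg library, where the labels number 5, so the replicate that each column of that group holds rests on its number alone. No column carries the name of replicate 6 of CD-HFD liver CXCR6pos, a labelled sample, so it was not analysed here. Replicate 1 of ND liver CXCR6neg and replicate 6 of ND spleen hold the same value in every gene and so differ by less than sampling noise. Their groups differ by label, so neither was used, and the fit held 32 libraries.

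The filter on low counts (filterByExpr, by group) kept 6174 genes, and libraries were scaled by TMM. The quasi-likelihood test of edgeR 4.0.16 in R 4.3.3 was run with robust estimation, 1 coefficient for each of the 6 groups and no replicate block. Benjamini-Hochberg adjustment ran over all 6174 genes, with a threshold of 0.05. The standard error (SE) of a log2 fold change is |log2 fold change| over the root of the F statistic. The fit was tested on simulated counts first. Levels are TMM-scaled CPM, as mean ± SD. Total counts bound the precision of each library.

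The 8 members, the gene lists, the comparisons and the alternatives were chosen with earlier results of these data known. The text names all members, from each list the up to 4 genes of smallest p-value between the CD-HFD liver fractions, the 5 genes most like the summed profile (1 of them is not reported here), and Cxcr6, Cd3e and Cd8a. Markers and other genes outside that rule were chosen after their values were seen. Alternatives were RLE scaling, no filter, DESeq2 1.42.0, the identical library kept in either or both groups, no shallow libraries (under 0.2 times the median total), a fit of the compared groups only, a replicate block and leaving out each library. Gene positions come from GENCODE M21 (GRCm38, counted from 1), and promoter sequences from RefSeq on GRCm38.p6.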

Additional observations from a re-analysis of the deposited data

Results flagged for a closer look

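Within groups, 5 libraries stood far from the others of their group for a GIMAP gene. The 54 combinations examined pair each group with each gene or with the family sum, which is not independent of its genes. Chance alone gives about 1 in 20. Gimap3 was at 690.7 CPM in ND CXCR6neg replicate 5, where the other 3 libraries held 822 to 848 CPM. Gimap3 was at 1160 CPM in ND spleen replicate 5, where the other 4 held 778 to 847 CPM. In CD-HFD CXCR6pos, Gimap4 was at 1822 CPM in replicate 5 (the others 1419 to 1515 CPM), Gimap5 at 389.8 CPM in replicate 1 (the others 301 to 326 CPM) and Gimap8 at 401.7 CPM in replicate 2 (the others 319 to 336 CPM). Replicate 5 is the shallowest library of that group, with 57168 counts. The calls of Gimap4, Gimap5 and Gimap8 between the CD-HFD liver fractions were each lost without the library named here (adjusted p = 0.107, 0.14 and 0.0591, edgeR quasi-likelihood test), while Gimap3 carried no call that its 2 libraries could end.

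The diet difference of Gimap9 differed between liver CXCR6pos and spleen by -0.7658 on the log2 scale (adjusted p = 0.00645, edgeR quasi-likelihood test of the interaction). The log2 fold change of CD-HFD against ND was -0.66 in CXCR6pos and 0.11 in the spleen.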

How the results depend on the processing

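No member value past the threshold changed sign under the alternatives tried. Of 88 member values per setting, 86 kept their call with RLE size factors, 82 with no filter on low counts, 83 with DESeq2, 84 with the identical library kept in both groups, 87 and 86 with it kept in ND CXCR6neg or ND spleen, 85 without shallow libraries, 85 in a fit of the compared groups only, 84 with the replicate block and 85 without the 2 libraries whose Cxcr6 went against their label. The last setting was chosen after seeing the data.

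The members called between the CD-HFD liver fractions numbered 5, and 3 with no filter or with the replicate block, where Gimap4 and Gimap5 missed the threshold (adjusted p = 0.0711 and 0.0918 with the block). Gimap3 gained a call there with RLE, without shallow libraries and in the fit of the compared groups only (adjusted p = 0.0468, 0.0309 and 0.0267). Between the ND fractions 0 were called, against 2 with DESeq2 and 1 with the block or without the 2 libraries. CD-HFD CXCR6pos against spleen gave 5, and 3 with no filter. CD-HFD CXCR6neg against spleen gave 0, and 2 in a fit of those groups only. ND CXCR6neg against spleen gave 2, against 0 with no filter, with the identical library in both groups or without the 2 libraries, and 1 with it in ND CXCR6neg or with the block. The interaction with spleen gave 1, and 2 with RLE or with the identical library in both groups or in the spleen. In the order of summed levels 0 neighbours lay apart, and 1 pair without shallow libraries or TMM. The causes were not tested.

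Leaving out each library kept 1074 of 1112 member values, with 26 calls lost and 12 gained. The number called ran from 3 to 5 between the CD-HFD fractions, 0 to 1 between the ND fractions, 2 to 3 between diets in CXCR6pos, 5 to 6 in either comparison of CXCR6pos with spleen, 0 to 2 for ND CXCR6neg against spleen and 0 to 2 for the interaction with spleen, and was 0 in the 4 other comparisons. Mean sums ran from 5555 to 5735 CPM (CD-HFD CXCR6pos), 4903 to 5154 (ND CXCR6pos), 4377 to 4456 (CD-HFD CXCR6neg), 4319 to 4529 (ND CXCR6neg), 4501 to 4564 (CD-HFD spleen) and 4247 to 4322 CPM (ND spleen), and 0 to 2 neighbours lay apart.

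Over all genes, calls between the ND fractions numbered 2, against 0 with RLE, without shallow libraries or with the compared groups only, 18 with no filter, 15 with DESeq2, 14, 14 and 1 with the identical library in both groups, ND CXCR6neg or ND spleen, 67 with the block and 90 without the 2 libraries. Between diets in CXCR6neg they numbered 29, against 55 and 53 with the identical library in both groups or CXCR6neg, 47 with the compared groups only and 9 without the 2 libraries. Between diets in the spleen they numbered 2, against 8 with no filter, 1 and 0 with the identical library in both groups or CXCR6neg, 4 with the compared groups only and 1 with the block. ND CXCR6neg against spleen gave 424, against 209 and 245 with the identical library in both groups or CXCR6neg, and the interaction between fractions 89, against 53 without the 2 libraries. Same-numbered libraries correlated from -0.118 to 0.219 and not every library correlated best with its own number, so the numbers were not taken to pair samples. Depth limits ND CXCR6pos replicate 1 most (15633 counts).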
